A study of Homo sapiens with 16 samples.

Results

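The loci described here are the 6 regions of the human genome that encode antigen receptors, seen in the Ewing sarcoma lines TC-71 and TC-32. Members are all peaks of the 6 deposited lists that overlap a fixed window at a locus, in coordinates of the build hg19. The windows are IGH, the immunoglobulin heavy chain locus, at 106.03 to 107.29 Mb of chromosome 14; TRA/TRD, the T cell receptor alpha and delta loci, at 22.09 to 23.02 Mb of chromosome 14; and IGK, the kappa light chain locus, at 89.15 to 90.28 Mb of chromosome 2. IGL, the lambda light chain locus, was taken at 22.38 to 23.27 Mb of chromosome 22, TRB, the T cell receptor beta locus, at 141.99 to 142.52 Mb of chromosome 7, and TRG, the T cell receptor gamma locus, at 38.27 to 38.41 Mb of chromosome 7. Of 114213 peaks over all lists, 201 lay in these windows, which together hold 4.88 Mb or 0.161% of the chromosome length. The windows were selected on position with the SMC1, BORIS and H3K27ac peaks listed there already known, so counts of these peaks are a description and carry no test.

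Antigen receptor loci are arrays of V, D and J gene segments that lymphocytes join by V(D)J recombination before the constant gene is expressed. Cohesin, the ring complex that contains SMC1, and CTCF, the zinc-finger factor that positions it, form the loops that bring distant V segments to the recombination centre in B and T cell precursors. BORIS, the product of the gene CTCFL, is a germ-line paralogue of CTCF with a similar zinc-finger domain, and acetylation of histone H3 at lysine 27 (H3K27ac) marks active promoters and enhancers. Ewing sarcoma is a tumour of bone and soft tissue and not of lymphocytes.

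Chromatin was immunoprecipitated with antibodies against BORIS, SMC1 and H3K27ac and sequenced beside input chromatin. The 2 lines were TC-71, labelled post-chemotherapy in the phase of therapy, and TC-32, labelled diagnosis; neither carries a further treatment in the labels. Each phase of therapy is thus 1 cell line, and the phase and the line cannot be told apart. There were 2 samples per line for each antibody and for the input, 16 in all. Both samples of a line and antibody share 1 peak list, and separate cultures are not stated, so no value per replicate, no replicate error and no test could be given. The peak lists hold no gene names and no annotation of hg19 was used here, so the cell type in the labels was not checked against marker genes.

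Over the whole genome the TC-71 lists held 18264 SMC1 peaks, 534 BORIS peaks and 26334 H3K27ac domains, and the TC-32 lists held 32720 SMC1 peaks, 6 BORIS peaks and 36355 H3K27ac domains. The read depth behind these lists is unknown. A peak is given below with its fold enrichment over the background from input and its −log10 q, which are the authors' values for that peak. Lists were called separately, so a fold set beside that of the other line is not a measured change. Ranges in parentheses after a percentage are exact Clopper-Pearson 95% intervals of a share and cover counting error only.

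Few members lay near a window edge. At the higher-coordinate end of IGH the last member was 2.32 kb inside the edge, an SMC1 peak of TC-32, and no peak of any list followed before the end of the chromosome. The nearest peaks outside were an H3K27ac domain of TC-71 3.56 kb below the TRA/TRD window (fold 2.68, −log10 q 2.52) and an SMC1 peak of TC-71 5.92 kb above it (fold 8.60, −log10 q 26.2). At TRG an SMC1 peak of TC-32 lay 2.02 kb inside the higher edge (fold 3.51, −log10 q 4.88) and another 7.62 kb below the lower edge (fold 7.86, −log10 q 18.5).

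SMC1 was listed at all 6 loci in both lines, and the 2 lines had close to the same number of peaks there although the TC-32 list was the longer one. The windows held 72 SMC1 peaks in TC-71 and 67 in TC-32, a ratio of 1.07, beside a ratio of 0.558 over the whole lists. TC-71 had more SMC1 peaks at IGH, TRA/TRD and IGL, with 32 against 25 in TC-32 at IGH, 14 against 9 at TRA/TRD and 18 against 13 at IGL. TC-32 had more at the other loci: IGK held 5 in TC-71 and 10 in TC-32, TRB 2 in TC-71 and 5 in TC-32, and TRG 1 in TC-71 against 5 in TC-32. With lists of equal length, TC-71 kept 72 of these peaks and TC-32 kept 30, so the ratio moved to 2.40. The higher counts of TC-32 at TRB and TRG were then gone, with 2 peaks in each line at TRB and 1 in each line at TRG, and IGK held 5 in TC-71 and 6 in TC-32. Leaving out SMC1 peaks at a BORIS site, an alternative chosen after seeing the data, it was 0.9701.

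**Figure D1:**
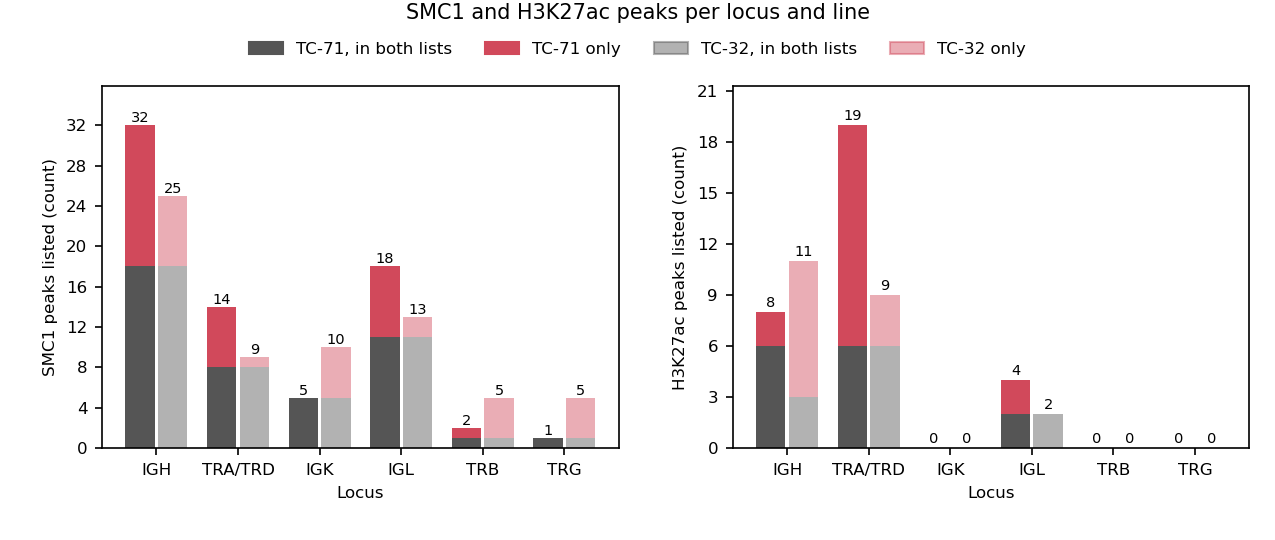
Number of SMC1 peaks (left) and H3K27ac domains (right) listed at each locus (x axis) in TC-71 (full colour) and TC-32 (pale), with peaks that overlap the other line's list in grey and peaks of 1 line only in red. TC-71 had more SMC1 peaks at IGH, TRA/TRD and IGL and fewer at IGK, TRB and TRG, and neither line had an H3K27ac domain at IGK, TRB or TRG.

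Per length, the 6 windows summed were not poor in SMC1, but some single loci were. The density was 14.8 SMC1 peaks per Mb in TC-71 and 13.7 in TC-32, beside 6.02 in TC-71 and 10.8 in TC-32 over the genome. Flanks of the same length on both sides of each window, cut at the chromosome end, were 8.56 Mb in all. They held 12.5 per Mb in TC-71 and 13.7 in TC-32, but this sum joins unlike loci and includes a flank above IGK with no peak of any list. The flank above IGH was cut to 0.0595 Mb and held no peak, so IGH was flanked in effect on the lower side alone. In TC-71 the flanks held 9.55 per Mb at IGL, where the locus held 20.2, and 10.4 at TRB, where the locus held 3.77. In TC-32 locus and flanks were alike at these loci, with 14.6 per Mb at IGL and 9.43 at TRB. At TRG the locus held 7.14 per Mb in TC-71 and 35.7 in TC-32, and its flanks 17.9 in each line. IGH was dense in TC-71, with 25.4 peaks per Mb against 19.8 in TC-32. Its flanks were nearly as dense, with 21.2 in TC-71 and 16.7 in TC-32. IGK was sparse, with 4.42 in TC-71 against 8.85 in TC-32. Its flanks held 3.98 in TC-71 and 5.75 in TC-32, counting the empty upper one. The lower flank of IGK alone held 9 peaks in TC-71 and 13 in TC-32, where the locus held 5 and 10. TRA/TRD lay below its flanks in both lines, with 15.1 against 19.9 in TC-71 and 9.68 against 22.04 in TC-32. IGK and TRB lay below the genome density in both lines, with 9.43 at TRB in TC-32, and TRA/TRD did in TC-32 alone. The members were on the weak side within their lists. Their median −log10 q was 10.6 in TC-71 and 13.3 in TC-32, beside 13.6 over the whole TC-71 list and 17.2 over the whole TC-32 list.

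The peaks were spread unevenly along the loci. Counting overlapping peaks of the 2 lines once gave 95 SMC1 sites, of which 44 were listed in both lines, 28 in TC-71 only and 23 in TC-32 only. At IGH, where the constant genes lie at the lower coordinates and the V segments at the higher ones, the first 380.9 kb of the window held no peak of any list in either line, and the 39 SMC1 sites above it followed each other at a median gap of 20.4 kb. The map of peaks along the windows shows this as an empty left end. IGL, TRB and TRG were also empty at their lower ends, over 169.8 kb, 256.2 kb and 88.5 kb. At IGK, where the constant gene lies at the lower coordinates, 5 of the 10 sites were shared and all of those lay in the lower-coordinate part. A stretch of 483.3 kb, chr2:89512912-89996167, held no peak of any list. Whether such empty stretches hold bases missing from the build or bases that reads cannot be placed on was not examined.

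**Figure D2:**
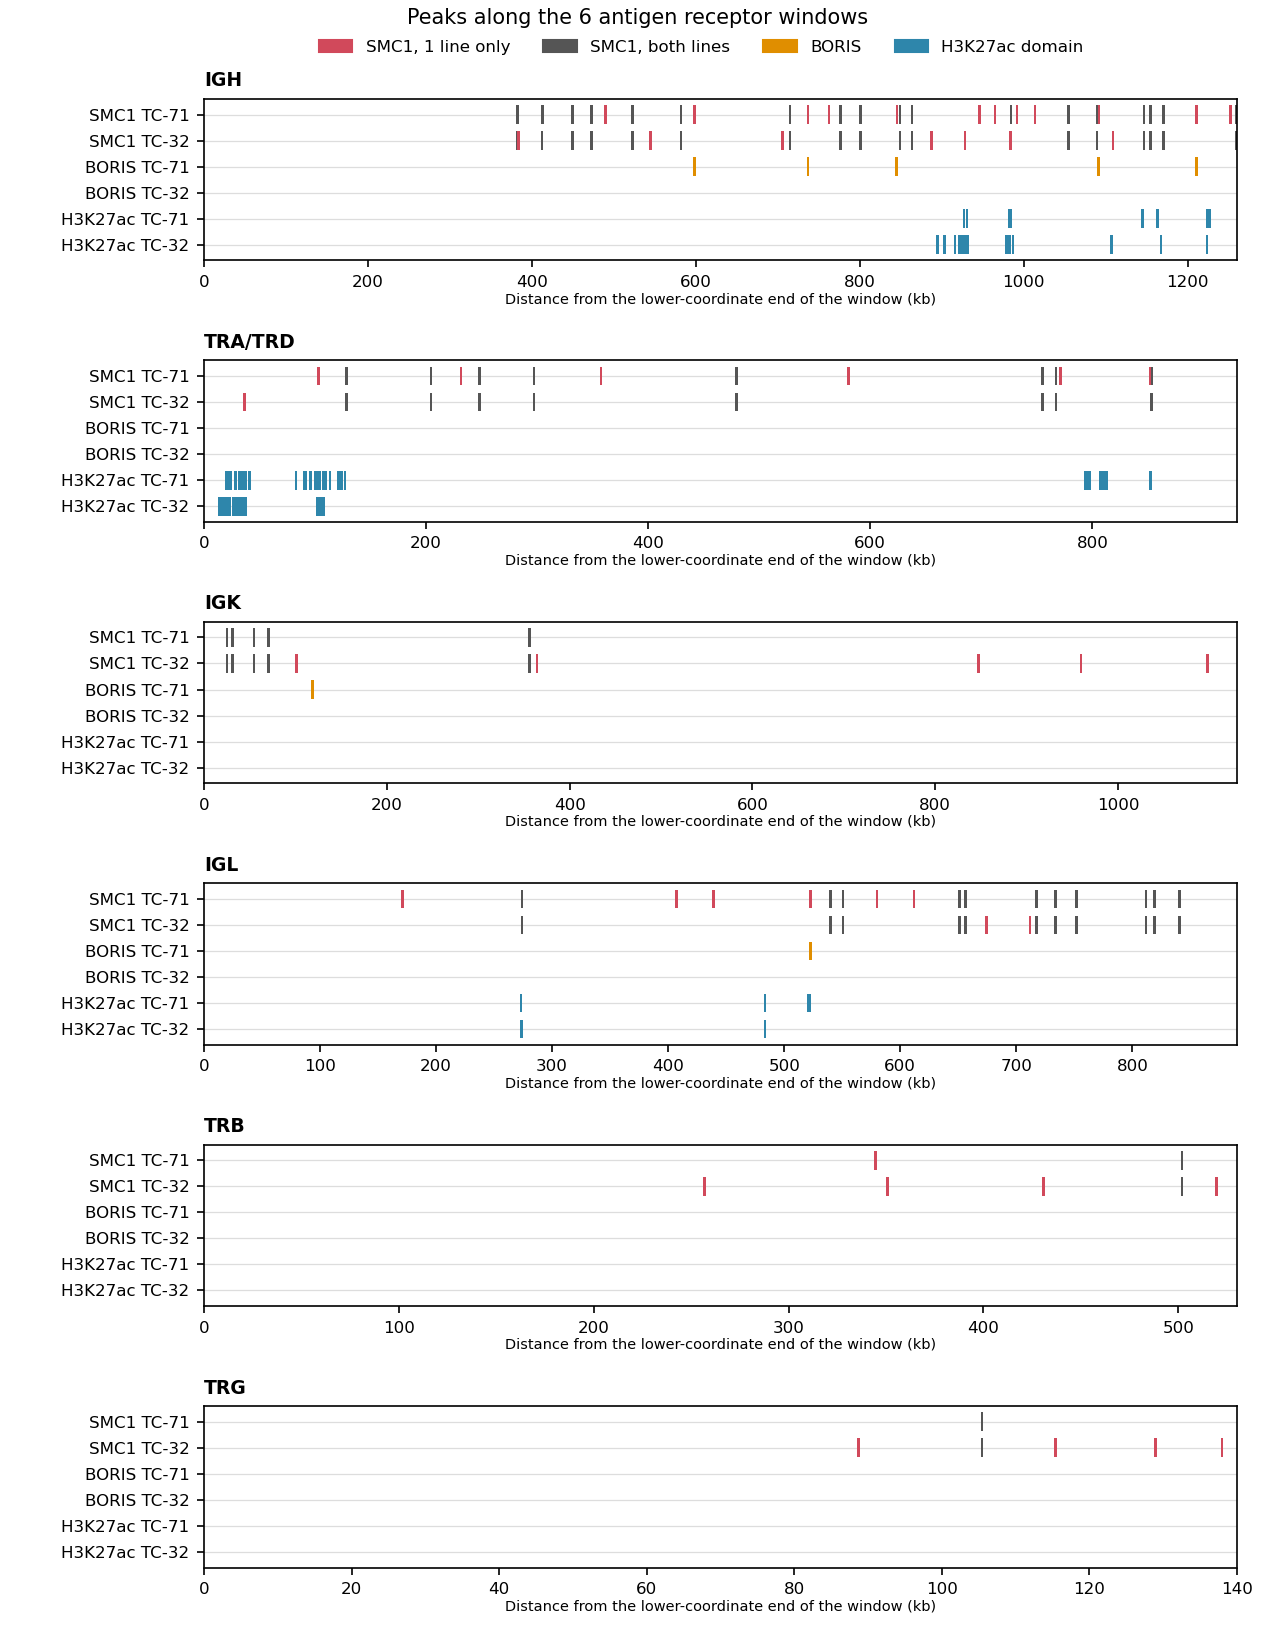
Peaks along each locus, with the distance from the lower-coordinate end of the window in kb on the x axis and 1 row per antibody and line, where grey marks SMC1 peaks listed in both lines, red SMC1 peaks of 1 line only, orange BORIS peaks and blue H3K27ac domains. Peaks narrower than the drawing limit are widened to be visible; IGH has no peak in its first 380.9 kb, and its 7 BORIS peaks lie among the SMC1 peaks above that.

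The share of line-only peaks turned on which list was taken. A peak was called line-only when it shared no base with any SMC1 peak of the other line. In TC-71, 28 of 72 members were line-only, or 38.9% (27.6 to 51.1), beside 9.69% over the whole TC-71 list. In TC-32, 23 of 67 members were line-only, or 34.3% (23.2 to 46.9), beside 49.7% over the whole TC-32 list. The members thus stood above the background of the list in TC-71 and below it in TC-32. In the flanks of the loci 13 of 107 SMC1 peaks of TC-71 were line-only, or 12.1% (6.63 to 19.9), and 24 of 117 of TC-32, or 20.5% (13.6 to 29.0). The flanks of IGH, where every peak lay on the lower-coordinate side, gave 7 of those 13 peaks. There 7 of 28 TC-71 peaks were line-only, or 25%, and 1 of 22 TC-32 peaks, or 4.55%. In the flanks of the other 5 loci, 6 of 79 TC-71 peaks and 23 of 95 TC-32 peaks were line-only.

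In both whole lists the line-only share was higher among weak peaks. The members were therefore set beside the whole list within 4 bins of near-equal size of the list by −log10 q. In the lowest bin, 15 of 23 TC-71 members were line-only, or 65.2% (42.7 to 83.6), beside 20.8% of all TC-71 peaks of that bin. The next bins held 8 of 23 and 2 of 17 line-only members in TC-71, beside 11.3% and 5.04%, and the highest held 3 of 9, beside 1.51%. For TC-32 the counts from the lowest to the highest bin were 10 of 16, 6 of 26, 7 of 21 and 0 of 4, beside 89.2%, 66.2%, 34.7% and 8.55%. In TC-71 the share was above the background of the same bin in each of the 4 bins. The interval for its 2 of 17 (1.46 to 36.4) still took in the background. In TC-32 the share was below the background in the lowest bin and the next. There the 7 of 21, or 33.3% (14.6 to 57.0), were near their background, and the interval of the 0 of 4 (0 to 60.2) took in its own. These intervals cover counting error only, and no difference from the background was tested. With lists of equal length 49 of 72 TC-71 members were line-only, or 68.1%, beside 25.1%, and 7 of 30 TC-32 members, or 23.3%, beside 25.3%. Restricted to peaks with a −log10 q of 5 or more in each list, the shares were 22 of 63 in TC-71, or 34.9%, beside 9.5%, and 19 of 60 in TC-32, or 31.7%, beside 47.4%.

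By locus, IGH, which held the most SMC1 peaks, also held the most line-only peaks in both lines. Its line-only share was 43.75% in TC-71, beside 9.69% over the whole list, and 28% in TC-32, beside 49.7%. In TC-32 the share was higher at IGK, at 50%, and at TRB and TRG, at 80% each. The 2 lines differed in how the other line-only peaks were spread. IGH held 14 of 32 in TC-71 and 7 of 25 in TC-32, TRA/TRD 6 of 14 in TC-71 and 1 of 9 in TC-32, and IGL 7 of 18 in TC-71 and 2 of 13 in TC-32. IGK held none of 5 in TC-71 and 5 of 10 in TC-32. With lists of equal length, IGK held 1 of 5 in TC-71 and 2 of 6 in TC-32. At TRB, 1 of 2 TC-71 peaks and 4 of 5 TC-32 peaks were line-only, and at TRG none of 1 in TC-71 and 4 of 5 in TC-32. These counts are small, and the interval for IGH in TC-71 alone ran from 26.4% to 62.3%.

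**Figure D3:**
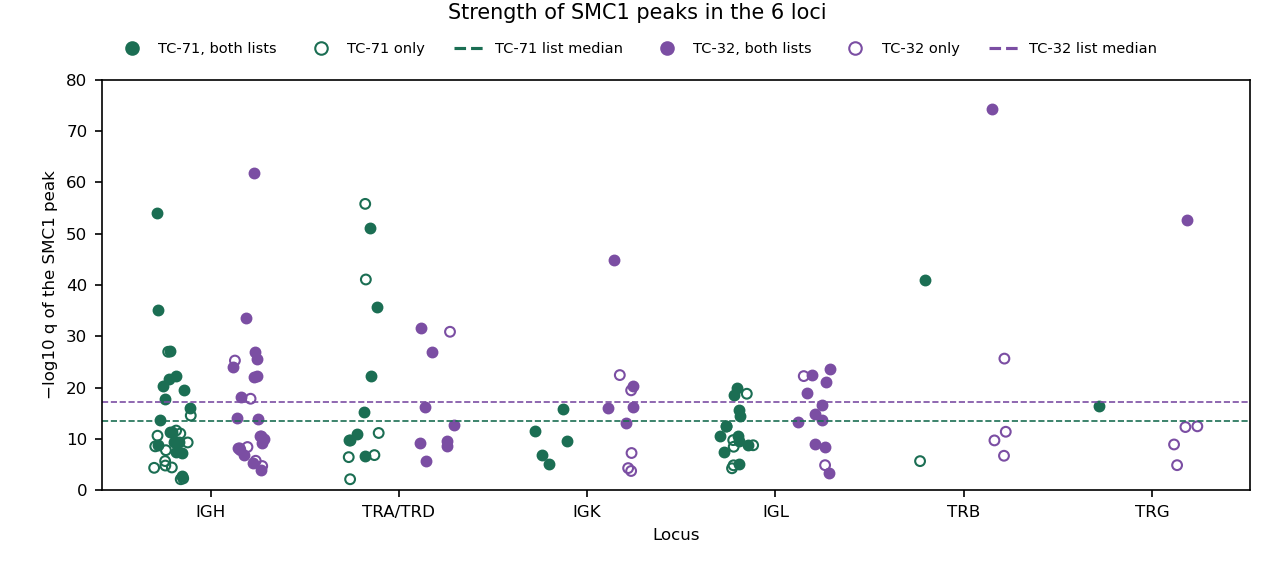
The −log10 q (y axis) of every SMC1 peak at each locus (x axis) in TC-71 (green) and TC-32 (purple), with filled points for peaks listed in both lines, open points for peaks of 1 line only and dashed lines for the medians of the whole lists, 13.6 in TC-71 and 17.2 in TC-32. Most open points lie below the medians, but at TRA/TRD the strongest TC-71 peak is an open point at 55.8.

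The strongest line-only members lay in the TRA/TRD window, where V segments occupy the lower and constant genes the higher coordinates. The SMC1 peak at chr14:22940555-22940849 had a fold of 10.8 and a −log10 q of 55.8 in TC-71 and no counterpart in TC-32. It was the strongest of all 14 TC-71 members there and stood at percentile 97.8 of the whole TC-71 list. A second TC-71-only peak at chr14:22860334-22860658 had a fold of 9.59 and a −log10 q of 41.1. The remaining TC-71-only peaks of the window were weaker, at chr14:22668992-22669122 (fold 6.94, −log10 q 11.2), chr14:22446518-22446646 (fold 5.11), chr14:22320356-22320521 (fold 4.65) and chr14:22191793-22191943 (fold 2.89). The single TC-32-only peak, chr14:22125298-22125565, had a fold of 9.55 and a −log10 q of 30.9 and lay near the opposite end of the window.

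At IGH, 13 of the 14 TC-71-only peaks had folds between 2.89 and 5.92. The exception was chr14:107280858-107281034, with a fold of 7.76 and a −log10 q of 26.98. This peak belonged to a run of 4 TC-71-only sites over 42.5 kb near the higher-coordinate end of the locus. The run was made of 2 close pairs, starting at 107238955 and 107239639, both at BORIS peaks, and at 107280858 and 107281285. The next by −log10 q were chr14:106790878-106791039 (fold 3.72, −log10 q 14.6) and chr14:107020143-107020293 (fold 5.92, −log10 q 11.6). Among the 7 TC-32-only peaks, chr14:106573059-106573276 (fold 8.69, −log10 q 25.3) and chr14:107137646-107137874 (fold 7.55, −log10 q 17.8) led. Along IGH, no run of successive sites of 1 line only was longer than 4.

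At IGL, the TC-71-only peaks were led by chr22:22785956-22786103, with a fold of 9.08 and a −log10 q of 18.8, followed by chr22:22549833-22550056 (fold 6.92, −log10 q 12.4) and chr22:22818508-22818661 (fold 5.58, −log10 q 9.76). The first of these opened a run of 4 successive TC-71-only sites over 115.9 kb. In the order of genes in RefSeq (assembly GRCh38.p14), PRAME, a germ-line gene often expressed in tumours, ZNF280A, ZNF280B and VPREB1, which encodes part of the pre-B cell receptor, lie among the V segments of this locus. No peak was assigned to them because the builds differ. Of the 2 TC-32-only peaks, chr22:23090843-23091057 had a fold of 9.46 and a −log10 q of 22.2.

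At IGK every line-only SMC1 peak was from TC-32. The strongest were chr2:89512745-89512911 (fold 9.83, −log10 q 22.4) and chr2:90108225-90108423 (fold 8.07, −log10 q 19.5), and the weakest was chr2:90246437-90246574 (fold 3.24, −log10 q 3.75). The last 4 sites of the locus were all TC-32-only and spanned 733.8 kb, so TC-71 had no SMC1 peak in the higher-coordinate part of IGK. At TRB the TC-32-only peaks were led by chr7:142508896-142509174 (fold 9.92, −log10 q 25.7), and the single TC-71-only peak, chr7:142334056-142334224, was weak (fold 4.67, −log10 q 5.67). At TRG the 4 TC-32-only peaks had folds between 3.51 and 6.62.

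SMC1 sites shared by the lines had their summits at nearly the same base, with a median distance of 9 bp over the 44 pairs and a largest distance of 81 bp. The strongest shared site at IGH was the first peak of the window, chr14:106410888-106411107 in TC-71 (fold 9.97, −log10 q 53.9) and chr14:106410895-106411134 in TC-32 (fold 15.1, −log10 q 61.9). At TRB the only shared site was also the strongest peak in each line, with a fold of 11.2 and a −log10 q of 40.9 in TC-71 (chr7:142491168-142491414) and 15.3 and 74.4 in TC-32 (chr7:142491134-142491445). TRG likewise had 1 shared site, with a fold of 5.21 in TC-71 (chr7:38375293-38375497) and 11.1 in TC-32 (chr7:38375283-38375510). The summits of the 2 lines lay 12 bp apart at TRB and 15 bp apart at TRG.

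The fold was higher in TC-71 in 15 of the 44 pairs, or 34.1%, beside 24.9% over all 16500 shared pairs of the lists. The median fold of the pairs was 5.82 in TC-71 and 6.34 in TC-32, beside 6.35 in TC-71 against 8.77 in TC-32 over all shared pairs. Pairs at TRA/TRD were evenly split, with 4 of 8 higher in TC-71. The widest gap in favour of TC-71 lay there too, at chr14:22942048-22942249, where the fold was 11.4 in TC-71 and 3.94 in TC-32, close to the strong TC-71-only peak described above. The site chr14:22568537-22568809 had folds of 12.9 in TC-71 and 6.61 in TC-32. In the other direction, the IGK site chr2:89179983-89180166 had folds of 3.95 in TC-71 and 12.3 in TC-32.

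**Figure D4:**
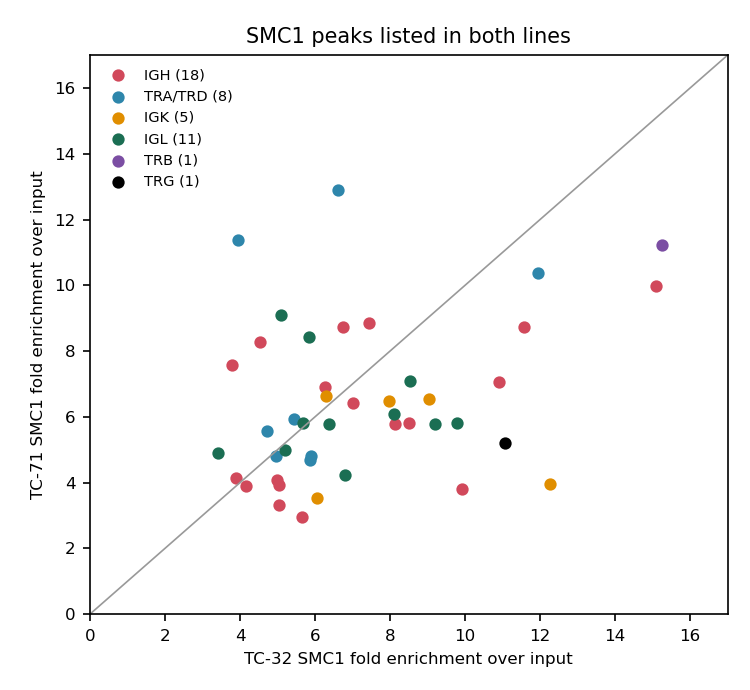
Fold enrichment over input of the 44 SMC1 sites listed in both lines, with TC-71 on the y axis and TC-32 on the x axis, 1 point per site coloured by locus and a line where both are equal. In 15 pairs the point lies above the line, and the farthest above are 2 TRA/TRD sites with folds of 12.9 and 11.4 in TC-71 against 6.61 and 3.94 in TC-32.

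BORIS was listed at these loci in TC-71 alone: the windows held 9 of the 534 TC-71 peaks, or 1.69% (0.773 to 3.18), and none of the 6 TC-32 peaks. All 9 were absent from the TC-32 list, as were 99.6% of all TC-71 BORIS peaks. IGH held 7 of them, IGK 1 and IGL 1, and TRA/TRD, TRB and TRG none. In the flanks of the windows another 9 were listed, 7 of them beside TRA/TRD and 2 below IGH.

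The 7 IGH peaks formed 5 positions. The other marks at IGH leaned to the higher-coordinate part of the window, toward the V end. It held 24 of 32 SMC1 peaks in TC-71 and 17 of 25 in TC-32, and all 8 H3K27ac domains of TC-71 and 11 of TC-32. Of the 7 BORIS peaks, 6 lay in this part too. The strongest was chr14:106765206-106765450, with a fold of 8.73 and a −log10 q of 22.5, followed by chr14:106873498-106873874 (fold 6.26, −log10 q 16.2) and chr14:106626915-106627189 (fold 8.55, −log10 q 15.9). Each of these stood alone. The other 4 formed close pairs near the higher-coordinate end: chr14:107119920-107120006 (fold 6.08) with chr14:107120247-107120363 (fold 6.27) 240 bp further on, and chr14:107238933-107239073 (fold 7.52) with chr14:107239721-107239816 (fold 4.37) 647 bp further on. The IGK peak was chr2:89267496-89267593 (fold 6.46, −log10 q 7.42) and the IGL peak chr22:22901645-22901824 (fold 5.48, −log10 q 13.9). The 9 peaks had a median fold of 6.27 and a median −log10 q of 13.5, beside 5.98 and 9.82 over the whole list.

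SMC1 lay at most of these BORIS peaks in TC-71 and at none in TC-32. These shares are set beside those of the whole list, and their difference was not tested. An SMC1 peak of TC-71 overlapped 7 of the 9, or 77.8% (40.0 to 97.2), beside 64% of all 534. No SMC1 peak of TC-32 overlapped any of the 9 (0 to 33.6%), beside 74% of all 534. Sites with SMC1 in the TC-71 list alone were thus 7 of 9 here and 5.62% of the whole list, that is 30 sites in the genome, of which 23.3% (9.93 to 42.3) lay in these loci. From the side of SMC1, 7 of the 28 TC-71-only members, or 25% (10.7 to 44.9), lay at a BORIS peak. Over all TC-71-only SMC1 peaks the share was 1.58%. None of the 44 shared members did (0 to 8.04%), and this interval took in the 1.9% of all shared SMC1 peaks.

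The SMC1 peaks under BORIS were weak. Their SMC1 folds ranged from 2.89 to 4.86 at IGH, with −log10 q between 2.14 and 8.55, and the IGL one had a fold of 3.81 and a −log10 q of 8.76. Restricted to peaks with a −log10 q of 5 or more, 3 of 8 BORIS members still overlapped SMC1, or 37.5%, beside 59.2% of all. The IGK BORIS peak had no SMC1 peak within 48.3 kb in TC-71 and its nearest one in TC-32 was 17.7 kb away. The nearest TC-32 SMC1 peaks to the IGH sites were between 1.99 and 40.7 kb away. A weak enrichment below the threshold in TC-32 was not tested, since the lists hold called peaks alone.

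**Figure D5:**
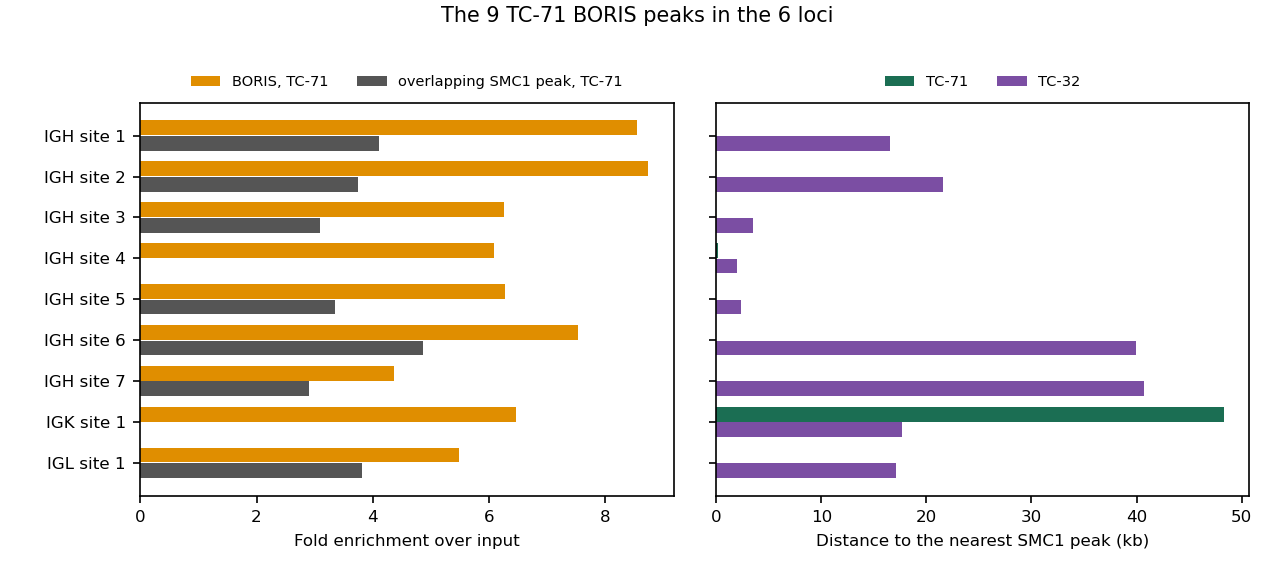
The 9 BORIS peaks of TC-71, numbered by position within each locus, with the fold enrichment over input of the BORIS peak and of the overlapping SMC1 peak in TC-71 (left) and the distance in kb to the nearest SMC1 peak in TC-71 (green) and TC-32 (purple) (right). SMC1 overlaps in TC-71 at 7 sites with folds of 2.89 to 4.86, and the nearest TC-32 peak lies 1.99 to 40.7 kb away.

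H3K27ac was listed at IGH, TRA/TRD and IGL in both lines and at IGK, TRB and TRG in neither. The windows held 31 domains in TC-71 and 22 in TC-32, which covered nearly the same length, 57.6 kb in TC-71 and 58.7 kb in TC-32, with 28.8 kb in common. The loci differed in direction. At IGH the domains covered 7.61 kb in TC-71 and 29.5 kb in TC-32, at TRA/TRD 46.8 kb in TC-71 and 27.8 kb in TC-32, and at IGL 3.20 kb in TC-71 and 1.39 kb in TC-32. Domains that met none of the other line were 17 of 31 in TC-71, or 54.8% (36.0 to 72.7), beside 32.7% over the whole list, and 11 of 22 in TC-32, or 50% (28.2 to 71.8), beside 52.9%. In TC-71 they were 13 of 19 at TRA/TRD, 2 of 8 at IGH and 2 of 4 at IGL. In TC-32 they were 3 of 9 at TRA/TRD, 8 of 11 at IGH and 0 of 2 at IGL. Neighbouring domains of 1 stretch were counted singly. A −log10 q of at least 5 was reached by 12 of the 31 TC-71 domains, beside 55.3% over the whole list, and by 11 of the 22 TC-32 domains, beside 58.1%.

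At IGH the widest acetylated stretch was chr14:106922962-106963301, which held 2 domains covering 3.26 kb in TC-71 and 5 covering 18.7 kb in TC-32. The strongest domain there was chr14:106955662-106958410 in TC-71 (fold 3.77, −log10 q 4.88) and chr14:106953174-106963301 in TC-32 (fold 6.46, −log10 q 21.8). Toward the higher-coordinate end, a domain pair was nearly equal between the lines, chr14:107252245-107254437 in TC-71 (fold 5.55, −log10 q 19.7) and chr14:107252069-107255462 in TC-32 (fold 5.44, −log10 q 18.2). None of the 7 BORIS peaks of IGH lay in a domain of either line.

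At TRA/TRD acetylation lay at both ends of the window in TC-71 and at the lower end in TC-32. The lowest stretch, chr14:22102744-22130544, was shared, with 18.4 kb covered and a highest fold of 5.85 in TC-71 and 20.03 kb and 5.79 in TC-32. The next, chr14:22171648-22217617, held 12 domains in TC-71, led by chr14:22190237-22195385 (fold 7.49, −log10 q 26.5), and 1 domain in TC-32, chr14:22191175-22198934 (fold 4.98, −log10 q 17.3). RefSeq lists the olfactory receptor genes OR10G2, OR4E1 and OR4E2 among the V segments of this locus, and no domain was assigned to them.

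The higher-coordinate end of TRA/TRD carried acetylation in TC-71 alone. The domains chr14:22882395-22888553 (fold 6.03, −log10 q 18.8) and chr14:22896327-22904308 (fold 4.58, −log10 q 12.1) lay between the strong TC-71-only SMC1 peaks at 22860334 and 22940555. A weaker domain, chr14:22940949-22943022 (fold 3.06, −log10 q 3.23), covered the shared SMC1 site whose fold was 11.4 in TC-71 against 3.94 in TC-32. The last TC-32 domain of the window ended at 22198934.

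At IGL the lines shared 2 domain positions and TC-71 had 2 further domains. The shared domain near chr22:22652023-22653246 had a fold of 3.83 in TC-71 and 6.997 in TC-32, and the other, near chr22:22862307-22863050, had 4.66 in TC-71 against 4.11 in TC-32. The additional TC-71 domains were chr22:22899502-22900060 (fold 6.49, −log10 q 19.4) and chr22:22900964-22901673 (fold 7.79, −log10 q 26.2). The second overlapped the TC-71-only SMC1 peak chr22:22901628-22901807 and the BORIS peak of this locus. This was the only one of the 9 BORIS sites at an H3K27ac domain of TC-71, or 11.1% (0.281 to 48.2), beside 56.7% of all TC-71 BORIS peaks. No BORIS site lay at a TC-32 domain, beside 56.6%. All 3 marks overlapped at this site of the loci alone, in TC-71, and by the edge of the domain: with 50% of the BORIS peak to be covered, 0 of the 9 sites lay at a domain.

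SMC1 lay mostly outside acetylated domains, at these loci as over the whole lists. Of the SMC1 members, 6 of 72 in TC-71, or 8.33% (3.12 to 17.3), and 5 of 67 in TC-32, or 7.46% (2.47 to 16.6), overlapped a domain of the same line, beside 13.6% over the whole TC-71 list and 25.9% over the whole TC-32 list. The TC-71 interval took in the share of its whole list, and the TC-32 interval did not. Neither is a test, since the loci were chosen with these peaks known. Of the members in a domain, IGH held 1 in TC-71 and 3 in TC-32, TRA/TRD 3 in TC-71 and 1 in TC-32, and IGL 2 in TC-71 and 1 in TC-32. Restricted to peaks and domains with a −log10 q of 5 or more, 2 of 63 TC-71 members overlapped a domain, or 3.17%, with 0 of 13 at TRA/TRD, and 4 of 60 TC-32 members, or 6.67%. In TC-71, 2 of the 28 line-only members overlapped a domain, or 7.14% (0.877 to 23.5), beside 17% of all TC-71-only SMC1 peaks. In TC-32, 3 of the 23 line-only members did, or 13.0% (2.78 to 33.6), beside 36.5% of all TC-32-only peaks.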

How the data were processed

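The authors deposited 1 peak list per line and antibody: narrow peaks for SMC1 and BORIS and broad domains for H3K27ac, with the input of that line as control per the peak names in the files. Per the submitters' processing notes, STAR 2.5.1b, SAMtools 1.3.1, Picard, deepTools 2.2.4, MACS2 2.1.1 and hg19 were used, without roles. Settings, and the way the 2 samples entered 1 list, are not stated in the sources at hand. Each deposited peak has a score (the −log10 q scaled up and cut to a whole number), a fold enrichment over input background (a ratio), a −log10 p and, as −log10 q, the adjusted value. The deposited summit offset, in bases, was used for summit distances. Depth is unknown from peak lists, and a longer list may reflect depth or enrichment.

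Several summits of 1 narrow peak counted as a single interval, with the strongest summit's values. Overlap meant 1 shared base. Acetylated stretches join domains of either line less than 12.5 kb apart. Percentiles and the 4 bins are of −log10 q within a list. Flanks are windows of the same length on each side, ended by the chromosome. Overlaps were computed with Python 3.11.15 and pandas 2.3.3, intervals with scipy 1.17.1 and chromosome lengths taken from circlize 0.4.16; on simulated data with 8000 sites, 0 calls were wrong. Named peaks are every BORIS member, the strongest 3 SMC1, 3 line-only SMC1 and 2 H3K27ac members per locus and line by −log10 q, and those nearest the window edges; others named were chosen after their values were seen. The members and rules were chosen with earlier results of these data known. Alternatives tried were 50% cover, summits within 500 bp, lists of equal length, windows shortened by 20 kb, intervals within 1 kb merged, every listed summit counted, only peaks with a −log10 q of 5 or more in all lists or in the members alone, and, added after seeing the data, SMC1 members at a BORIS site left out. A count or ratio was taken as moved when it changed by over 1.5 times, and a share when it left the 95% interval of the value reported. Copy number and mappability were not analysed, and no sequence was printed because no genome of this build was used.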

Additional observations from a re-analysis of the deposited data

How the results depend on the processing

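With 1 list per line and antibody, every value here describes lists and has no replicate error; leaving out a replicate was not possible. No paired analysis was possible because both samples of a line and antibody share 1 list. Of 399 values recomputed, 361 stayed within 1.5 times (counts and ratios) or within the 95% interval (shares, which is wide at these counts), 37 moved and 1 ratio crossed 1. Some of the 361 could not move. Lists of equal length trimmed SMC1 and H3K27ac of TC-32 alone, so the TC-71 counts stayed as they were. Counts of 0 could not rise, and no TC-32 SMC1 member lay at a BORIS site to be left out. At TRA/TRD, the share of TC-71 SMC1 in H3K27ac was 0% with a −log10 q of at least 5. With lists of equal length in both lines, TC-32 kept 30 SMC1 peaks (10 at IGH), so the TC-71 over TC-32 ratio was 2.40 (3.20 at IGH), the line-only share of TC-71 members 68.1% (75.0% at IGH) and the share of TC-32 SMC1 inside H3K27ac at IGH 0%. The ratio was 0.9701 without SMC1 peaks at BORIS sites, a choice made after seeing the data. With a −log10 q of at least 5, H3K27ac domains numbered 12 in TC-71 and 11 in TC-32 (2 and 5 at IGH), BORIS at TC-71 SMC1 was 37.5% (33.3% at IGH), and no TC-71 SMC1 peak of IGH lay in H3K27ac (0%). With 50% of a member covered, BORIS at TC-71 H3K27ac and IGH SMC1 of TC-71 in H3K27ac were both 0%. With summits within 500 bp, all 7 IGH BORIS peaks met SMC1 of TC-71 (100%).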
